A study of Mus musculus with 14 samples.

Results

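RNA of hematopoietic progenitor cells (HPCs) that carried 1 mutant copy of Polg was compared with RNA of wild-type HPCs, both transduced with the empty control vector. The groups were taken from the sample labels, which give 3 arrays of heterozygous cells (Het-Ctrl, genotype Polgwt/mut) and 3 of wild-type cells (WT-Ctrl, Polgwt/wt), 6 of the 14 arrays of the series. HPCs were lineage-negative mouse bone marrow cells, that is, marrow depleted of cells bearing markers of mature blood lineages, and were kept in culture for 48 h before the vector was added. The control vector was the retrovirus MSCV-IRES-YFP, so both groups had been exposed to retroviral particles and carried a yellow fluorescent protein. The labels do not name the mutation in Polg, nor the age, sex or number of the mice, and call the arrays biological replicates. P-values therefore measure the spread between these samples. Where the text sets values beside them, the other groups were homozygous mutant cells with the control vector (Hom-Ctrl, Polgmut/mut, 2 arrays) and cells of all 3 genotypes with MSCV-NMyc-IRES-YFP, which adds the oncogene N-Myc (WT-NMyc, Het-NMyc and Hom-NMyc, 2 arrays each).

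Polg encodes the subunit of the mitochondrial DNA polymerase that synthesises and proofreads mitochondrial DNA (mtDNA). mtDNA encodes core subunits of respiratory chain complexes and of the ATP synthase, together with the ribosomal and transfer RNAs needed to translate them, and all other mitochondrial proteins come from the nucleus. Cells respond to failing mitochondria through pathways that can be read in nuclear transcripts, among them the stress response driven by ATF4, the p53 program of cell cycle arrest and death, and antioxidant enzymes. In marrow, HPCs give rise to neutrophils, monocytes, erythroid cells and other lineages, whose markers show how the cultures were composed.

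No gene passed the test between heterozygous and wild-type HPCs. Each array gave 1 log2 value for each of 22206 tested probe sets, and a difference of 1 on this scale is a 2-fold difference. With limma and Benjamini-Hochberg adjustment over all probe sets, 0 were called at an adjusted p under 0.05 (0%), and the smallest adjusted p was 0.878. At an unadjusted p under 0.05 there were 935 (4.21%), of which 460 were higher and 475 lower in Het-Ctrl. Single differences ran from -0.98 to 0.98, so 0 probe sets reached 2-fold, and the central 98% lay between -0.45 and 0.42. These values carry bounds on size: the 95% confidence interval of the difference lay within 1 log2 unit of 0 for 21985 probe sets and within 0.5 for 13869 (62.5%). The number of arrays limits this precision. The 3 arrays of a group did not overlap with those of the other for 814 probe sets higher in Het-Ctrl (3.67%) and 799 lower (3.6%), and these are the shares against which the counts of genes below are to be read.

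**Figure D1:**
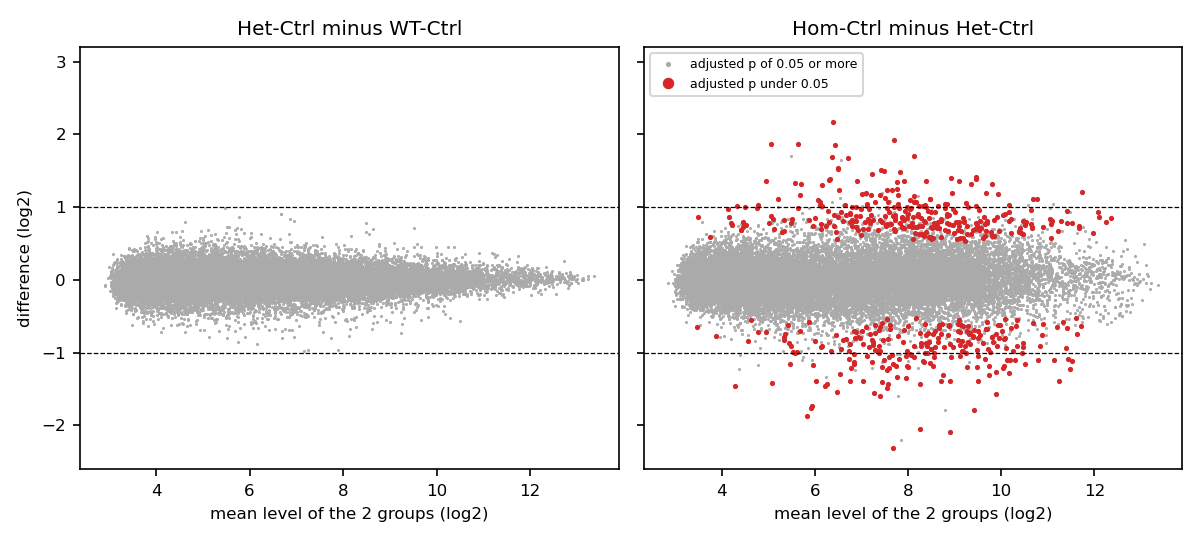
Difference between 2 groups (log2, vertical axis) against their mean level (log2, horizontal axis) for each of 22206 probe sets, for Het-Ctrl minus WT-Ctrl (left) and Hom-Ctrl minus Het-Ctrl (right). Red points passed limma's adjusted p under 0.05, which 0 did on the left and 533 on the right, and dashed lines mark 2-fold.

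Arrays with the same number were more alike than the WT-Ctrl arrays were among themselves, and about as alike as the Het-Ctrl arrays. The correlation across probe sets was 0.990 to 0.991 between heterozygous and wild-type arrays with the same number, 0.985 to 0.986 among WT-Ctrl arrays, 0.989 to 0.991 among Het-Ctrl arrays and 0.986 to 0.989 between arrays that shared neither. On the first 2 principal components of the 6 arrays, which held 28.7% and 27.4% of the variance, the genotypes overlapped, and the fourth (14.5%) put all WT-Ctrl arrays below all Het-Ctrl arrays. Of the markers of the labelled cells, all 6 pan-blood genes and 14 of 16 stem and progenitor genes read above the median of the negative control probes, as did 72.9% to 79.5% of all probe sets on these 6 arrays, 10 of 15 B lymphoid and 12 of 20 T and NK genes, so the counts are no check of the label. Kit, the receptor for stem cell factor, read 10.09, 9.73 and 10.10 in WT-Ctrl replicates 1 to 3 and 10.06, 9.74 and 9.96 in Het-Ctrl. Cd34, a progenitor surface protein, read 9.70, 9.53 and 9.33 in WT-Ctrl and 9.46, 9.68 and 9.64 in Het-Ctrl. The groups overlapped for both markers, which were singled out as defining ones.

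Polg itself did not differ beyond the spread between arrays. It read 6.91, 7.67 and 7.19 in WT-Ctrl replicates 1 to 3 and 7.25, 7.23 and 7.42 in Het-Ctrl, a difference of 0.05 (SE 0.17, limma adjusted p = 0.999). The level of a transcript does not tell a mutant from a normal copy, so it was no check of the genotype. Mycn, the gene of the other vector, read between 7.43 and 7.76 on all 6 arrays with a difference of -0.03 (SE 0.34). Its relative Myc read 11.31 to 11.50 with a difference of 0.00 (SE 0.14). Both groups overlapped for all 3 genes.

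The machinery that keeps mtDNA was measured through 21 nuclear genes, with 0 called (0% of all probe sets) and a median difference of 0.02 against -0.003 over all probe sets. Tfam, which packages mtDNA and starts its transcription, read 7.19, 6.31 and 7.05 in WT-Ctrl and 6.76, 6.10 and 6.91 in Het-Ctrl. Each Het-Ctrl array lay below the WT-Ctrl array of its number, while the groups overlapped (difference -0.26, 95% interval -0.74 to 0.22). Polg2, the accessory subunit of the polymerase, differed by -0.01 (interval -0.49 to 0.47), and Ssbp1, which coats single-stranded mtDNA, by -0.06 (interval -0.35 to 0.22). Dna2, a nuclease and helicase that processes replication intermediates, read 7.60, 7.51 and 7.69 in WT-Ctrl and 7.86, 7.84 and 7.71 in Het-Ctrl. Its groups did not overlap, with the nearest arrays at 7.69 and 7.71, and the difference was 0.20 (SE 0.12, limma adjusted p = 0.999).

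Genes that transcribe and process mitochondrial RNA split around 0, with a median of -0.05 over 22 members. Polrmt, the mitochondrial RNA polymerase, was 0.33 higher in Het-Ctrl (SE 0.14) without overlap, at 6.29, 6.09 and 6.01 in WT-Ctrl and 6.49, 6.40 and 6.48 in Het-Ctrl. Pnpt1, the polynucleotide phosphorylase that degrades mitochondrial RNA, was 0.38 lower (SE 0.15), at 8.11, 8.04 and 8.48 in WT-Ctrl and 7.58, 7.83 and 8.08 in Het-Ctrl, where the groups overlapped. Neither passed the test. Every Polrmt value was below 7.66, the mean 95th percentile of the negative control probes on these arrays. Transcripts of mtDNA itself could not be named, because 0 of the 26 symbols listed for them matched the annotation. The table holds 9 probe sets whose identifiers place them on the mitochondrial chromosome, at levels of 10.04 to 13.31. Their differences ran from -0.07 to 0.06, all 9 intervals lay between -0.46 and 0.33, and 0 were called.

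Lists of respiratory chain subunits had medians slightly above 0, by less than the median half-width of a single gene's interval (0.34). The median difference was 0.12 over 35 members of complex I, 0.09 over 14 of complexes II and III, 0.10 over 15 of complex IV and 0.08 over 16 of the ATP synthase, with 0 members called in each. The median over the pair of arrays of each number was above 0 for all 3 numbers in complex I (0.09, 0.22 and 0.03), complex IV and the ATP synthase, and not in complexes II and III, where number 3 gave -0.09. Members without overlap were all in the higher direction: 2 of complex I, 3 of complexes II and III, 0 of complex IV and 2 of the ATP synthase. The same lists had medians of -0.01, 0.07, 0.00 and 0.06 between Het-NMyc and WT-NMyc, which are other arrays.

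Single subunits, taken from those of smallest p in their lists, show the scale of these values. Ndufc1 of complex I read 9.66, 9.64 and 9.72 in WT-Ctrl and 9.87, 9.91 and 9.90 in Het-Ctrl, a difference of 0.22 (SE 0.11, limma adjusted p = 0.999). Sdhc, a membrane anchor of complex II, read 7.89, 7.95 and 7.91 in WT-Ctrl and 8.35, 8.27 and 7.96 in Het-Ctrl (difference 0.27, SE 0.14). Replicate 3 was the lowest of the Het-Ctrl arrays for Sdhc and just cleared the wild type. Cox7a2, a small subunit of complex IV, read 9.55, 9.77 and 9.49 in WT-Ctrl and 10.14, 9.88 and 9.71 in Het-Ctrl, so that the groups overlapped (difference 0.31, SE 0.14). Uqcrc2, a core protein of complex III, differed by 0.17 (SE 0.14) without overlap. Other subunits named by the same rule were lower in Het-Ctrl, with overlap. Cox6a2, the lowest of the complex IV list, differed by -0.41 (SE 0.23) and was lower at each number. Uqcr10 of complex III differed by -0.12 (SE 0.13). Of the 76 genes listed for the mitochondrial ribosome, which translates mtDNA-encoded subunits, 2 lay higher without overlap and the median was 0.03. Mrps36, on that list by its symbol, read 8.17, 8.08 and 8.25 in WT-Ctrl and 8.60, 8.45 and 8.50 in Het-Ctrl (difference 0.35, SE 0.12).

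Fuel pathways gave medians of 0.09 over 25 genes of the TCA cycle and pyruvate entry, 0.09 over 22 of glycolysis and -0.01 over 20 of fatty acid oxidation, with 0 called. Idh2, the mitochondrial isocitrate dehydrogenase that makes NADPH, read 9.96, 9.64 and 9.77 in WT-Ctrl and 10.10, 10.14 and 9.94 in Het-Ctrl. Its groups overlapped, and the difference was 0.27 (SE 0.13, limma adjusted p = 0.999). Lists for mitochondrial chaperones and proteases (19 genes) and for fusion, fission and mitophagy (18 genes) had medians of -0.01 and 0.02.

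The stress response driven by ATF4, which raises amino acid synthesis when mitochondria fail, did not read higher in Het-Ctrl. Its 38 measured members had a median difference of -0.12, below 0 in the pairs of all 3 numbers (-0.12, -0.04 and -0.29), with 0 called. With NMyc the direction was the other way, with a median of 0.11 between Het-NMyc and WT-NMyc and 0 called. The mean level over the list there was 8.91 to 8.95 in WT-NMyc and 9.06 to 9.14 in Het-NMyc. Atf5, a transcription factor of the mitochondrial unfolded protein response, read 8.31, 8.21 and 8.98 in WT-Ctrl and 7.80, 7.72 and 8.42 in Het-Ctrl. Each Het-Ctrl array was below the WT-Ctrl array of its number, but the groups overlapped (difference -0.52, SE 0.23). Chac1, a glutathione-degrading ATF4 target, differed by -0.29 (SE 0.15). Trib3, a pseudokinase that ATF4 induces, read 9.16, 9.09 and 10.11 in WT-Ctrl and 9.19, 8.92 and 9.24 in Het-Ctrl, where the wild-type replicate 3 stood above the other arrays. Fgf21, a hormone induced by mitochondrial stress, differed by 0.13 (interval -0.15 to 0.41). In Hom-Ctrl, 8 of the 38 were called lower than in WT-Ctrl (1.88% of all probe sets were), with Chac1 at 6.90 and 6.94, and 5 were lower than in Het-Ctrl (1.06%).

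**Figure D2:**
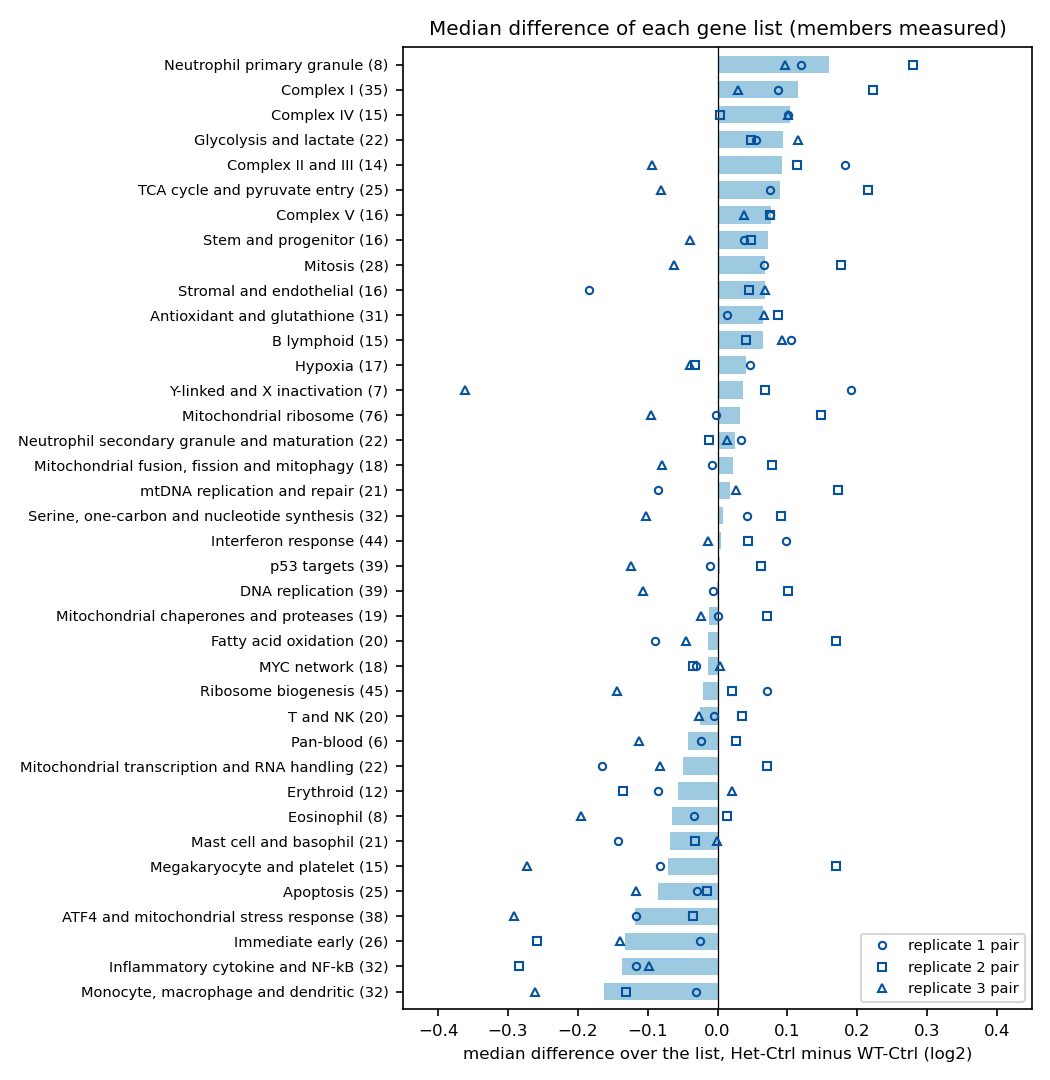
Median difference between Het-Ctrl and WT-Ctrl (log2, horizontal axis) for each of 38 gene lists, as bars, with the median over the pair of arrays of each replicate number as open symbols and the number of measured members in parentheses. Bars run from -0.16 for monocyte, macrophage and dendritic genes to 0.16 for neutrophil primary granule genes, and for most lists the 3 pairs lie on both sides of 0.

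Across all 38 lists, the medians ran from -0.16 to 0.16. Of 887 genes in the lists, 0 were called, 32 lay higher and 23 lower without overlap, and 857 had a 95% interval within 1 log2 unit of 0. The pairs of all 3 numbers had medians above 0 in 7 lists and below 0 in 6. Of the 38 medians, 11 kept their sign in every alternative setting. The plot of list medians shows how far the pairs of arrays spread around them.

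Gstp1 and Gstp2 encode glutathione transferases of the pi class, which attach glutathione to electrophiles. They are near-identical copies, so probes may cross-hybridise and their values may not be separate. Gstp2 read 8.80, 8.28 and 8.49 in WT-Ctrl and 9.06, 9.01 and 9.01 in Het-Ctrl, a difference of 0.50 (SE 0.13). Gstp1 read 9.10, 8.98 and 8.74 in WT-Ctrl and 9.42, 9.48 and 9.21 in Het-Ctrl, a difference of 0.43 (SE 0.13). All Het-Ctrl arrays were above all WT-Ctrl arrays for both, and the limma adjusted p was 0.999 for each. Gstm1, a transferase of the mu class, read 11.10, 10.91 and 11.11 in WT-Ctrl and 11.32, 11.30 and 11.57 in Het-Ctrl (difference 0.36, SE 0.14). Gpx7, a peroxidase of the endoplasmic reticulum, was 0.40 lower (SE 0.18), at 6.84, 6.39 and 6.95 against 6.29, 6.29 and 6.39, also without overlap. The 31 measured antioxidant and glutathione genes, a list without Gstp2, had a median of 0.07 and ran from -0.41 to 0.43. Of these, 4 lay higher and 1 lower without overlap. In Hom-Ctrl, 6 of the 31 were called higher than in WT-Ctrl and 1 lower, where 2.03% and 1.88% of all probe sets were (3.91% in either direction). Gstp1 was among the higher ones, at 9.64 and 9.81 (limma adjusted p = 0.00914). Gstp2 was also called higher, at 9.36 and 9.34 (adjusted p = 0.00712).

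Genes that did not pass the test were named by a rule: the largest differences in each direction, up to 10 each way, among those that met its conditions. These were an unadjusted p under 0.01, no overlap and the same sign at all 3 numbers. The higher of the 2 group means also had to be above the 95th percentile of the negative controls (7.66). The lower group mean could be below it, as for Hddc3 (7.26 in WT-Ctrl) and Pld4 (7.41 in Het-Ctrl). The rule gave 9 higher and 9 lower, and larger differences exist among genes that its other conditions left out, such as Msr1 and Fos. Since they were picked from both extremes of the same 6 arrays, their values are a description. Higher in Het-Ctrl were also Idi1, Hddc3, Zbtb11os1, Gdf7, Per3, Hps1 and Ppp2r5d. Idi1, an isomerase of cholesterol synthesis, read 8.55, 8.41 and 7.77 in WT-Ctrl and 8.85, 9.08 and 8.70 in Het-Ctrl (difference 0.63, SE 0.20). Hddc3, a hydrolase related to bacterial enzymes of the stringent response, read 6.87, 7.43 and 7.48 in WT-Ctrl and 7.90, 7.68 and 7.96 in Het-Ctrl (difference 0.59, SE 0.16). The wild-type replicate 1 was the lowest array for Hddc3, and the nearest arrays of the groups were 7.48 and 7.68. Ppp2r5d, a regulatory subunit of the phosphatase PP2A, had the tightest groups, at 8.64, 8.55 and 8.59 in WT-Ctrl and 8.92, 8.99 and 8.98 in Het-Ctrl (difference 0.37, SE 0.11). Per3, a component of the circadian clock, was 0.46 higher (SE 0.14), Gdf7, a ligand of the bone morphogenetic protein family, 0.46 (SE 0.14), and Hps1, which serves the biogenesis of lysosome-related organelles, 0.42 (SE 0.12). Zbtb11os1, a transcript annotated opposite Zbtb11, was 0.49 higher (SE 0.13). All of these had a limma adjusted p of 0.999.

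Lower in Het-Ctrl were Pld4, Ptgs2, Sirpb1c, Vcan, Tatdn2, Map4k4, Il7r, Acsbg1 and Pex2. Pld4, an endolysosomal nuclease of myeloid and dendritic cells, had the smallest adjusted p of the comparison. It read 7.96, 8.28 and 8.91 in WT-Ctrl (8.38 ± 0.48, SD, n = 3) and 7.28, 7.58 and 7.38 in Het-Ctrl (7.41 ± 0.15, SD, n = 3), a difference of -0.97 (SE 0.19, 95% interval -1.37 to -0.57, limma adjusted p = 0.878). The wild-type arrays spread further than the heterozygous ones, and all 3 of them were higher. Ptgs2, the inducible cyclooxygenase, read 7.73, 8.10 and 7.93 in WT-Ctrl and 7.35, 7.44 and 6.82 in Het-Ctrl (difference -0.72, SE 0.22). Vcan, the proteoglycan versican, read 8.73, 8.90 and 9.42 in WT-Ctrl and 8.46, 8.38 and 8.46 in Het-Ctrl (difference -0.58, SE 0.16). Sirpb1c, a myeloid receptor with near-identical copies, read 8.66, 8.92 and 9.26 in WT-Ctrl and 8.46, 8.33 and 8.03 in Het-Ctrl (difference -0.68, SE 0.21). For Pld4, Vcan and Sirpb1c the wild-type replicate 3 was the highest of the 6 arrays. Smaller differences were those of Tatdn2, a putative deoxyribonuclease (-0.52, SE 0.17), Map4k4, a kinase of the JNK pathway (-0.47, SE 0.16), and Il7r, the interleukin 7 receptor (-0.44, SE 0.14). Acsbg1, an acyl-CoA synthetase, differed by -0.43 (SE 0.14) and Pex2, a peroxisome biogenesis protein, by -0.40 (SE 0.12). Leaving out WT-Ctrl replicate 1 gave the smallest adjusted p of any setting, 0.141, and still 0 calls.

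**Figure D3:**
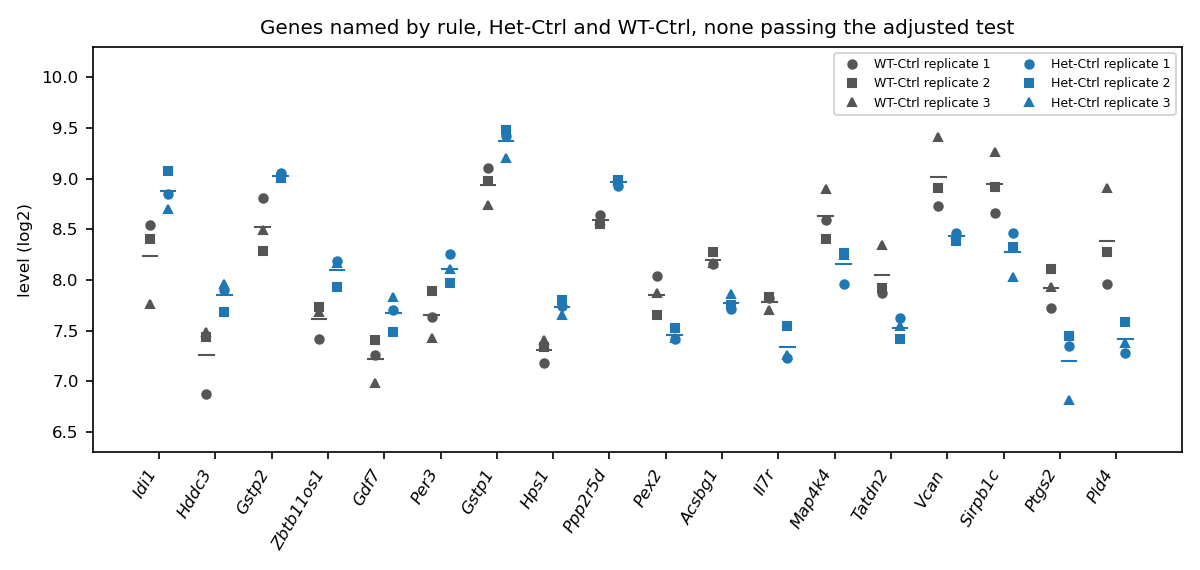
Level (log2, vertical axis) in each of the 3 WT-Ctrl (grey) and 3 Het-Ctrl (blue) arrays for the 18 genes named by rule, ordered from the most positive to the most negative difference, with symbols for the replicate number and lines for group means. The groups do not overlap for any of them because the rule required it, and Ppp2r5d has the tightest groups.

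The NMyc arrays gave a reading of the same genotypes on other arrays. The rule's differences had not used them, but its unadjusted p drew on a spread estimated from all 14 arrays. By the sample codes, NMyc arrays numbered 1 and 2 fell in the same runs as control-vector arrays numbered 2 and 3. Whether these arrays share mice or cultures is not given, so the reading may not be independent. Between Het-NMyc and WT-NMyc, 0 of 22206 probe sets were called (0%) and 576 had an unadjusted p under 0.05 (2.59%). The change of the heterozygous difference between the vectors was called for 0 (0%), with 730 at an unadjusted p under 0.05 (3.29%) and a smallest limma adjusted p of 1.00. Of the 9 genes higher in Het-Ctrl, 6 were also higher in Het-NMyc, and of the 9 lower ones 5 were also lower. The largest of these was Hddc3, at 7.37 and 7.64 in WT-NMyc and 8.09 and 8.05 in Het-NMyc (difference 0.56, SE 0.20, limma adjusted p = 1.00). Gstp1 was 0.25 higher (SE 0.16), Ppp2r5d 0.27 (SE 0.14) and Gstp2 0.19 (SE 0.16), each with both Het-NMyc arrays above both WT-NMyc arrays. Pld4 was at 8.63 and 8.56 in WT-NMyc and 8.63 and 8.54 in Het-NMyc, a difference of -0.01, and Ptgs2 differed by -0.01 as well. Among the 9 lower genes the differences with NMyc ran only from -0.16 to 0.16.

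Against Het-Ctrl, the homozygous arrays gave no common direction for the genes of either set. Of the 9 genes higher in Het-Ctrl, 5 read above Het-Ctrl in Hom-Ctrl and 4 below it, with 1 called in each direction (1.34% of all probe sets were called higher and 1.06% lower). Of the 9 lower ones 5 read below Het-Ctrl and 4 above it, with 0 called. The called genes were Hddc3, higher in Hom-Ctrl, and Hps1, lower by -0.59 (SE 0.13, limma adjusted p = 0.0329, and 0.104 without Hom-Ctrl replicate 1) at 7.14 and 7.15. Against WT-Ctrl, Hom-Ctrl read lower for each of the 9 lower genes, from -0.26 for Ptgs2 to -1.36 for Sirpb1c. Sirpb1c, Vcan, Tatdn2 and Pex2 were called (1.88% of all probe sets were called lower). Of the 9 higher ones, Zbtb11os1, Per3 and Hps1 (-0.16, SE 0.13) read below WT-Ctrl. The others read above it, with Hddc3, Gstp1, Gstp2 and Ppp2r5d called (2.03%). The rule picked these genes on the WT-Ctrl and Het-Ctrl arrays, so comparisons with either reuse those values. They are given side by side. Hddc3 averaged 7.26 ± 0.34 in WT-Ctrl and 7.85 ± 0.15 in Het-Ctrl (SD, n = 3 each), and the 2 Hom-Ctrl arrays read 8.75 and 8.64. Hom-Ctrl was above Het-Ctrl by 0.85 (SE 0.18, limma adjusted p = 0.0220), and without Hom-Ctrl replicate 1 by 0.79 (adjusted p = 0.101). Without that replicate Hom-Ctrl is 1 array, which is assumed to vary like the other groups. Ppp2r5d read 9.28 and 9.17 in Hom-Ctrl, 0.64 above WT-Ctrl (SE 0.13, limma adjusted p = 0.0129) and 0.27 above Het-Ctrl (adjusted p = 0.350). The calls against WT-Ctrl rest on both Hom-Ctrl arrays. Without Hom-Ctrl replicate 1 the differences from WT-Ctrl were 0.58 for Ppp2r5d, -0.88 for Tatdn2 and -0.58 for Pex2. Gstp1 and Gstp2 were 0.35 and 0.33 above Het-Ctrl, with adjusted p = 0.268 and 0.318. Hddc3, Ppp2r5d, Gstp1 and Gstp2 were picked from the 9 higher ones after their values were seen, for their order WT-Ctrl, Het-Ctrl, Hom-Ctrl.

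**Figure D4:**
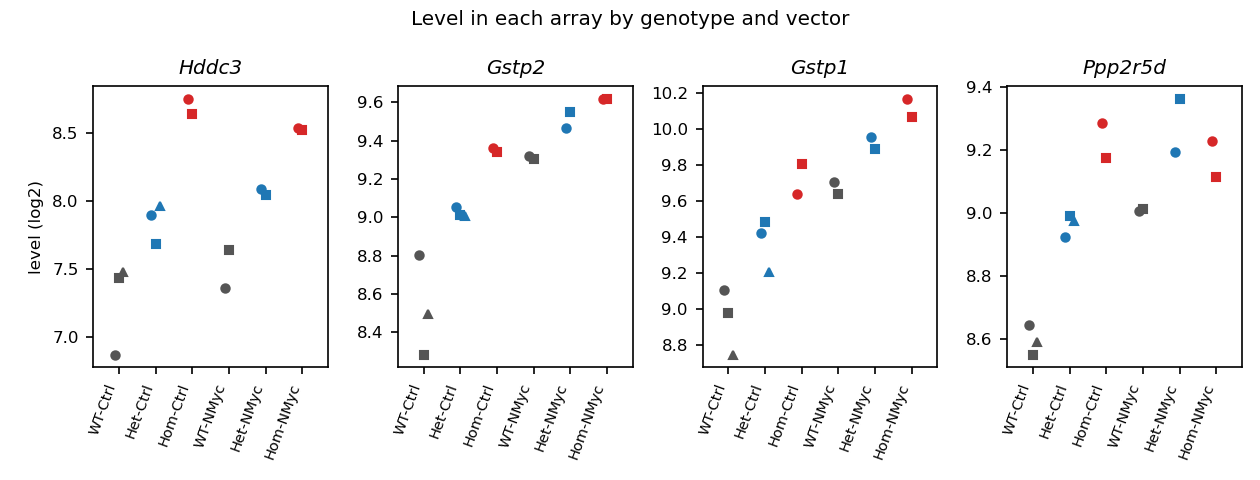
Level (log2, vertical axis, a separate scale for each gene) of Hddc3, Gstp2, Gstp1 and Ppp2r5d in all 14 arrays, by genotype (colour) and vector. With the control vector the 3 genotypes do not overlap for any of the 4 genes, and with NMyc both Het arrays are above both WT arrays, while for Ppp2r5d the Hom-NMyc arrays overlap the Het-NMyc ones.

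The targets of p53, the transcription factor that halts the cell cycle after DNA damage and other stress, were compared across genotypes. With the control vector they differed between homozygous and heterozygous cells and not measurably between heterozygous and wild-type cells. Between Het-Ctrl and WT-Ctrl, 0 of 39 measured targets were called and the median difference was 0.004, with pairs of arrays at -0.01, 0.06 and -0.12. With NMyc the heterozygous median was 0.14 above the wild type, against 0.02 over all probe sets, and 0 were called. The mean level over the list there was 7.64 to 7.65 in WT-NMyc and 7.75 to 7.85 in Het-NMyc. Between Hom-Ctrl and Het-Ctrl, 17 of the 39 were called higher, where 1.34% of all probe sets were, and 0 lower, with a median of 0.61 against -0.001 over all probe sets. Without Hom-Ctrl replicate 1, whose Mycn level of 9.77 stands apart from all other control arrays, 12 were called. The mean level over the list was 7.83 to 7.97 in WT-Ctrl, 7.63 to 7.97 in Het-Ctrl and 8.41 to 8.49 in Hom-Ctrl. Het-Ctrl replicate 3 was the lowest of the 8 arrays. Over all probe sets 533 were called between Hom-Ctrl and Het-Ctrl (2.4%), 426 without Hom-Ctrl replicate 1, 163 without Het-Ctrl replicate 3 and 339 without Het-Ctrl replicate 1.

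For Cdkn1a, Mdm2 and Ccng1 the sequence before the gene start is shown. They were picked from 5 called targets with a match to the p53 half-site consensus. This is a motif of 10 bases that reads the same on both strands. The 250 bases before a RefSeq start (GRCm38.p6) are given 5′ to 3′ on the gene's strand, with half-sites in capitals. Only windows with a match were printed. They lie at chr17:29090729-29090978 (+) for Cdkn1a, chr10:117710759-117711008 (-) for Mdm2 and chr11:40755287-40755536 (-) for Ccng1.
Cdkn1a: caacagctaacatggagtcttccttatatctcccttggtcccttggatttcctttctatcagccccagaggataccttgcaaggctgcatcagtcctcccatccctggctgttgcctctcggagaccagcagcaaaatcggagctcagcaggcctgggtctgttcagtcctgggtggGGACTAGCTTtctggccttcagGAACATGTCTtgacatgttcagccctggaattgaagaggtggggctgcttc
Mdm2: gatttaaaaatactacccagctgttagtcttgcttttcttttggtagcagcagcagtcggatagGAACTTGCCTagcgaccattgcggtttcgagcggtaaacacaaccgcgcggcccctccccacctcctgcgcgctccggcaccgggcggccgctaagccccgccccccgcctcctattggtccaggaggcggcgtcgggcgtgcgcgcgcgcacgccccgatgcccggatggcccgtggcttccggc
Ccng1: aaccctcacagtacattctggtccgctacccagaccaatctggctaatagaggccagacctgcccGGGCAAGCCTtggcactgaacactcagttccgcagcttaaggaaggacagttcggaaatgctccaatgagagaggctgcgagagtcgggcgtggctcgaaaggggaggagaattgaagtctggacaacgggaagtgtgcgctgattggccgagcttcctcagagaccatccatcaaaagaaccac
The windows hold 2 half-sites for Cdkn1a and 1 each for Mdm2 and Ccng1. A half-site was found in 8 of 44 windows of the list's genes (18.2%; 30 of the 39 genes have a window) and in 7.13% of all 32851 windows of this length. A match is a description of these letters only.

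Levels of these 3 genes overlapped between WT-Ctrl and Het-Ctrl and lay apart in Hom-Ctrl. Cdkn1a, which encodes the p21 inhibitor of cyclin-dependent kinases, read 11.26, 10.92 and 10.83 in WT-Ctrl, 11.34, 11.24 and 10.80 in Het-Ctrl and 12.14 and 12.52 in Hom-Ctrl. Het-Ctrl differed from WT-Ctrl by 0.12 (interval -0.23 to 0.47) and Hom-Ctrl from Het-Ctrl by 1.20 (SE 0.18, limma adjusted p = 0.00401). Mdm2, the ligase that degrades p53, differed by -0.09 between Het-Ctrl and WT-Ctrl (interval -0.38 to 0.19) and by 1.03 between Hom-Ctrl and Het-Ctrl (adjusted p = 0.00315). Ccng1, a cyclin induced by p53, differed by 0.03 (interval -0.33 to 0.38) and by 1.11 (adjusted p = 0.00643). The upper bounds of all 3 heterozygous intervals were below the homozygous differences. Zmat3, an RNA-binding p53 target, read 7.16, 6.79 and 6.69 in WT-Ctrl, 7.15, 6.72 and 6.34 in Het-Ctrl and 8.82 and 8.50 in Hom-Ctrl. These 4 genes were chosen after their values were seen.

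The 4 targets with the smallest p between Het-Ctrl and WT-Ctrl lay 2 in each direction. Psrc1, a spindle protein, read 8.10, 7.63 and 7.63 in WT-Ctrl and 8.39, 8.29 and 8.11 in Het-Ctrl (difference 0.48, SE 0.17), and 9.09 and 9.52 in Hom-Ctrl. Ddb2, a damage sensor of nucleotide excision repair, was 0.46 higher (SE 0.16) without overlap, at 7.67, 8.12 and 7.69 in Het-Ctrl, and read 7.33 and 7.42 in Hom-Ctrl. Phlda3, a repressor of AKT signalling, went the other way, at 6.36, 5.86 and 5.81 in WT-Ctrl and 5.74, 5.60 and 5.16 in Het-Ctrl (difference -0.51, SE 0.18), with 7.41 and 7.29 in Hom-Ctrl. Plk2, a polo-like kinase, read 6.58, 6.52 and 6.08 in WT-Ctrl and 6.35, 6.10 and 4.74 in Het-Ctrl (difference -0.67, SE 0.31). Its Het-Ctrl replicate 3 stood below all other control arrays. None of the 4 passed, each with limma adjusted p = 0.999. Every WT-Ctrl and Het-Ctrl value of Phlda3 and Plk2 was below 7.66, the mean 95th percentile of the negative controls.

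**Figure D5:**
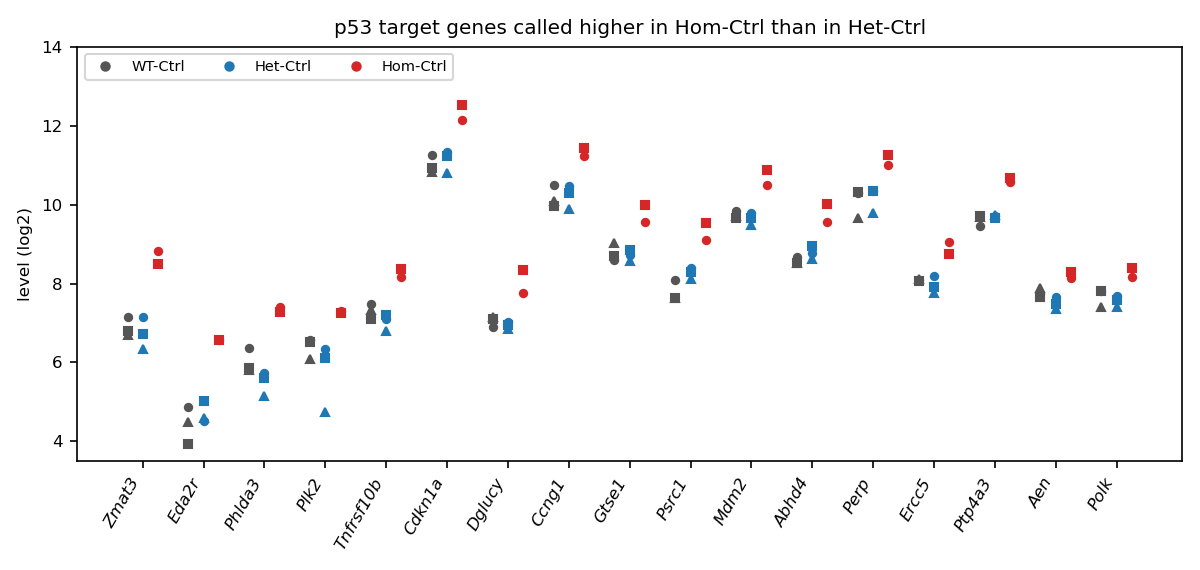
Level (log2, vertical axis) in the WT-Ctrl (grey, 3 arrays), Het-Ctrl (blue, 3) and Hom-Ctrl (red, 2) arrays for the 17 p53 targets called higher in Hom-Ctrl than in Het-Ctrl, ordered by that difference. The genes were selected on the Hom-Ctrl values, and WT-Ctrl and Het-Ctrl overlap for all of them except Phlda3 and Psrc1.

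Myeloid markers gave the widest list medians, in opposite directions. Of 8 measured genes of neutrophil primary granules, which are made at the promyelocyte stage, the median was 0.16 and 2 lay higher without overlap. Elane, neutrophil elastase, read 12.67, 12.53 and 12.55 in WT-Ctrl and 12.82, 12.78 and 12.93 in Het-Ctrl (difference 0.26, SE 0.13). Prtn3, proteinase 3, read 11.55, 11.29 and 11.39 in WT-Ctrl and 11.75, 11.64 and 11.70 in Het-Ctrl (difference 0.29, SE 0.14). Prss57, a related serine protease, was 0.36 higher (SE 0.14) with overlap, and Mpo, myeloperoxidase, differed by 0.09 (interval -0.23 to 0.42). The mean level over the primary granule list was 10.67 to 10.98 in WT-Ctrl and 10.95 to 11.12 in Het-Ctrl, so the groups overlapped. Between Het-NMyc and WT-NMyc the list median was -0.03. Genes of the later secondary granules had a median of 0.02 over 22 members. Ltf, lactoferrin, read 11.94, 12.00 and 11.98 in WT-Ctrl and 11.98, 11.89 and 11.98 in Het-Ctrl, and its interval was -0.34 to 0.29. Against Het-Ctrl, 12 of these 22 were called lower in Hom-Ctrl, where 1.06% of all probe sets were, with Ltf lower by 1.40 (SE 0.17, limma adjusted p = 0.00148). Ltf was chosen after its values were seen.

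Markers of monocytes, macrophages and dendritic cells had a median of -0.16 over 32 members, with 3 lower and 1 higher without overlap. In bulk samples fewer cells of a type and less RNA per cell cannot be told apart. Msr1, a macrophage scavenger receptor, read 7.15, 7.42 and 7.19 in WT-Ctrl and 6.93, 6.50 and 6.26 in Het-Ctrl (difference -0.69, SE 0.17). C1qb, a chain of complement C1q, read 6.89, 7.32 and 7.10 in WT-Ctrl and 6.75, 6.36 and 6.75 in Het-Ctrl (difference -0.48, SE 0.17). F13a1, coagulation factor XIII A, was 0.38 lower (SE 0.17), whereas Marco, another scavenger receptor, was 0.28 higher (SE 0.12). None passed the test, and every value of Msr1 and C1qb was below 7.66, the mean 95th percentile of the negative controls. The mean level over the list was 7.80 to 8.11 in WT-Ctrl and 7.51 to 7.95 in Het-Ctrl, so the groups overlapped. Pairs of arrays gave medians of -0.03, -0.13 and -0.26, without Het-Ctrl replicate 3 the list median was 0.036, and between Het-NMyc and WT-NMyc it was -0.02. The part of cell composition in the lower values of Pld4, Vcan and Sirpb1c was not tested.

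Immediate early genes, which respond within minutes to stimulation, had a median of -0.13 over 26 members, with 1 lower and 0 higher without overlap. Inflammatory cytokine and NF-kB genes had one of -0.14 over 32, with 2 lower and 0 higher without overlap, and 0 genes of either list were called. Between Het-NMyc and WT-NMyc the medians were 0.09 and 0.05. Without Het-Ctrl replicate 3 the immediate early median was 0.018, and without Het-Ctrl replicate 1 it was -0.30. Nr4a3, a nuclear receptor, and Dusp2, a MAP kinase phosphatase, were 0.40 and 0.36 higher in Het-Ctrl. Fos, a subunit of the AP-1 transcription factor, read 9.32, 9.74 and 9.77 in WT-Ctrl and 9.24, 8.90 and 8.48 in Het-Ctrl (difference -0.73, SE 0.28). Its partner Jun read 9.40, 9.83 and 9.49 in WT-Ctrl and 9.42, 9.07 and 8.64 in Het-Ctrl (difference -0.53, SE 0.21). Dusp1, a phosphatase that ends MAP kinase signals, differed by -0.57 (SE 0.22). The values at number 1 were nearly equal for Fos and Jun, and the lower values came from Het-Ctrl replicates 2 and 3. Ccl2, a chemokine that attracts monocytes, read 8.98, 8.73 and 8.99 in WT-Ctrl and 8.51, 8.22 and 8.48 in Het-Ctrl (difference -0.50, SE 0.25). Interleukin 6 (Il6), in contrast, differed by 0.20 (interval -0.22 to 0.63).

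Lists of growth and synthesis genes had medians near 0, at -0.001 over 39 genes of DNA replication, 0.07 over 28 of mitosis, -0.02 over 45 of ribosome biogenesis, 0.008 over 32 of serine, one-carbon and nucleotide synthesis, and -0.01 over 18 of the MYC network. Apoptosis genes had a median of -0.085 over 25, below 0 in the pairs of all 3 numbers, with 1 higher and 4 lower without overlap, 0 called and a median of 0.06 between Het-NMyc and WT-NMyc. Bcl2a1d and Bcl2a1b, near-identical copies of an anti-apoptotic BCL2 relative, were 0.43 (SE 0.16) and 0.38 (SE 0.18) lower. Bcl2a1d read 7.59, 7.87 and 7.89 in WT-Ctrl and 7.29, 7.48 and 7.30 in Het-Ctrl, and 6.67 and 5.99 in Hom-Ctrl. Interferon response genes had a median of 0.005 over 44, and among them Bst2, a protein that tethers virus particles, was 0.34 higher (SE 0.13) without overlap. Erythroid, megakaryocyte, mast cell, eosinophil, B lymphoid, T and NK, and stromal lists had medians between -0.07 and 0.07.

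Y-linked genes set arrays of different numbers apart. Eif2s3y, a translation factor of the Y chromosome, read 3.96, 9.78 and 9.69 in WT-Ctrl replicates 1 to 3 and 3.59, 9.78 and 8.80 in Het-Ctrl. Uty, a Y-linked histone demethylase, read 4.02, 7.38 and 7.88 in WT-Ctrl and 4.00, 7.62 and 6.77 in Het-Ctrl. Kdm5d, a further one, read 3.86, 6.55 and 6.29 in WT-Ctrl and 3.22, 6.50 and 5.26 in Het-Ctrl. All 3 were low in replicate 1 of both groups and high in replicates 2 and 3, with Het-Ctrl replicate 3 below the wild-type array of its number for each. The labels give no sex and the mice behind each array are not described, and by this measure each group held 1 low array. Sry differed by 0.30 (SE 0.17), and Zfy1, Zfy2 and Usp9y were not above the negative control median on any of the 6 arrays. Leaving out both arrays numbered 1, 2 or 3 left 0 calls each time.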

How the data were processed

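The 6 WT-Ctrl and Het-Ctrl arrays were Affymetrix whole-transcript arrays of mouse HPCs, labelled with biotin. The deposited table holds log2 values, 1 per probe set and array, which the authors made with a tool that the submitters' processing notes name as Affymetrix Expression Console. How it summarised and normalized probes, in which version and on which build, is not given in the sources used here. Values from 2.24 to 13.47 fit a log2 scale. If scaling before deposit made arrays alike, a change shared by most transcripts would not be seen. Control probe sets (6640 of 28846) were left out. Of the 22206 tested, 19572 had 1 gene symbol in the platform's annotation and 2634 stay unnamed.

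limma 3.58.1 (R 4.3.3) fitted 6 group means to all 14 arrays, with eBayes and Benjamini-Hochberg adjustment over all probe sets, and calls were made at an adjusted p under 0.05. Residual degrees of freedom were 8, and moderation supplied a further 7.3. It was tested on simulated data. Alternatives left out arrays or pairs, or changed the arrays fitted, blocks, normalization, filters and moderation. Across probe sets, deviations from the group means in heterozygous and wild-type arrays with the same number correlated at 0.235, 0.266 and 0.249, and those of different numbers at -0.168 to -0.078, so that the numbers in the titles pair the samples. The sample codes form 3 runs, which the labels do not call batches, and each run holds 1 WT-Ctrl and 1 Het-Ctrl array. Runs 2 and 3 also hold the NMyc arrays numbered 1 and 2.

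Genes were grouped in 39 lists (915 of 1023 entries matched). List members and Polg were named without a filter on level. Some, among them Polg, Polrmt, Gpx7, Msr1, C1qb, Phlda3 and Plk2, had both group means below the negative controls' mean 95th percentile of 7.66. Groups, lists and rules were chosen with earlier results of these data known. The 18 genes of the rule on p, overlap, sign and level, Polg, Mycn, Myc, the Y-linked genes and up to 4 members of each list with the smallest p were named by rule, and others are said to be chosen after their values were seen. Tfam, Polg2, Ssbp1, Trib3, Fgf21, Mpo and Il6 were also named outside the rule.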

Additional observations from a re-analysis of the deposited data

Results flagged for a closer look

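For 16 genes described above, all 3 pairs of control-vector arrays of the same number put the heterozygous array on one side of the wild-type array and both pairs of NMyc arrays put it on the other. Two-sided limma tests of the change of the difference between the vectors passed for none of them (adjusted p = 1.00 for each). C1qb had the largest gap relative to its error, with -0.48 for the control vector and 0.58 for NMyc (change 1.06, SE 0.27). Plk2 differed by -0.67 and 0.51 (change 1.17, SE 0.48), with the Het-Ctrl replicate 3 standing apart. Phlda3, a p53 target like Plk2, differed by -0.51 and 0.28 (change 0.80, SE 0.28), and Mdm2 by -0.09 and 0.17. Dusp1 differed by -0.57 and 0.35, Chac1 by -0.29 and 0.34, and Gpx7 by -0.40 and 0.20. Sirpb1c differed by -0.68 with the control vector and by 0.16 with NMyc, and Pex2 by -0.40 and 0.033. The near-identical Bcl2a1d and Bcl2a1b differed by -0.43 and -0.38 with the control vector and by 0.32 and 0.095 with NMyc. In the opposite order, Ndufc1 differed by 0.22 and -0.20, Marco by 0.28 and -0.19, and Polrmt by 0.33 and -0.087. The granule genes Prss57 and Mpo differed by 0.36 and 0.09 with the control vector and by -0.034 and -0.10 with NMyc. Most of these genes were named because they had the smallest p of their list with the control vector.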

How the results depend on the processing

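The count of 0 calls between Het-Ctrl and WT-Ctrl held in all 19 alternatives, with 184 to 1520 probe sets at an unadjusted p under 0.05 and a smallest limma adjusted p of 0.141, without WT-Ctrl replicate 1. With the replicate number as a block, which uses the pairing of the arrays, 0 probe sets were called by limma (smallest adjusted p = 0.984, 1065 at an unadjusted p under 0.05), and the block changed no other call of this comparison. Het-NMyc against WT-NMyc and the change between vectors also kept 0 calls in every setting run. Of 72 named genes followed across the settings, 58 kept their direction in every setting run and 0 passed in any. With array weights the difference was -0.0024 for Ccng1, 0.12 for Eif2s3y, -0.0044 for Myc, 0.065 for Polg2 and 0.0071 for Uty, and with quantile normalization it was -0.0073 for Myc. Leaving out arrays or pairs gave -0.12 to 0.29 for Polg, -0.25 to 0.29 for Polg2, -0.16 to 0.082 for Mycn, -0.055 to 0.056 for Myc, -0.17 to 0.041 for Kit and -0.048 to 0.23 for Cd34. It gave -0.12 to 0.20 for Ccng1, -0.35 to 0.057 for Zmat3, -0.036 to 0.45 for Il6, -0.041 to 0.22 for Mpo and -0.056 to 0.020 for Ltf. For the Y-linked genes, which are low on 1 array of each group, it gave -2.35 to 1.48 for Eif2s3y, -1.43 to 0.31 for Kdm5d and -1.50 to 0.77 for Uty. List medians ran to 0.304 in size, above the main values, and 11 of 38 kept their sign in every setting run. The monocyte, macrophage and dendritic median became 0.036 and the immediate early one 0.018 without Het-Ctrl replicate 3, and that of complexes II and III -0.035 without the pair numbered 1. Between Hom-Ctrl and Het-Ctrl the 533 calls became 182 with only the 8 control-vector arrays, 231 with only the AFFX controls left out, 884 with a trended and robust eBayes, and 163 to 641 when arrays or pairs were left out. The 17 of 39 p53 targets called became 11 of the 22 left by a filter on dim probe sets and 12 to 18 when arrays were left out. The 12 of 22 secondary granule genes became 8 with only the 8 control-vector arrays, 16 with a trended and robust eBayes and 9 to 14 when arrays were left out. The cause of these changes was not tested. The alternatives that leave out arrays or pairs of one number, for the pairs and for Hom-Ctrl, were chosen after seeing the data. Precision is limited by 3 arrays a group, with a median half-width of the 95% interval of 0.34.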

Other observations

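Hddc3 lies near Polg on chromosome 7, where it is the 23rd measured gene on one side in gene order (RefSeq, GRCm38.p6). Of the 50 measured genes nearest to Polg, 25 on each side, 4 had an unadjusted p under 0.05 between Het-Ctrl and WT-Ctrl (8%), against 3.90% of the 1822 measured genes of the chromosome, and 0 were called. The other 3 were lower in Het-Ctrl: Gm10619 by -0.54 (SE 0.18), Mctp2 by -0.47 (SE 0.19) and Arpin by -0.39 (SE 0.18). All WT-Ctrl and Het-Ctrl values of these 3 genes were below 7.66, the mean 95th percentile of the negative controls. Gm10619 read 4.21 to 5.31, where the negative control medians of these arrays were 4.47 to 4.87. The median difference over all 50 was -0.03. With 100 genes on each side the share was 5%. Between Hom-Ctrl and WT-Ctrl, 4 of the 50 were called (8%), where 3.91% of all probe sets were. Genes around Polg were looked at after the value of Hddc3 was seen. Hddc3 is itself counted among the 4 genes of both shares, so neither share is a test of the region. The genetic background of the mice is not described in the labels.

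Thy1 and Ndrg2 had the highest differences of the T and NK list and of the MYC network list, whose medians were near 0. Thy1, a surface protein of T cells and some progenitors, read 10.10, 9.35 and 8.02 in WT-Ctrl replicates 1 to 3 and 10.20, 10.16 and 9.24 in Het-Ctrl (difference 0.71, SE 0.37, limma adjusted p = 0.999). Replicate 3 was the lowest array of both groups, and the 95% interval was -0.08 to 1.50. Ndrg2, a gene that MYC represses, read 8.69, 8.45 and 7.34 in WT-Ctrl and 9.04, 8.98 and 8.44 in Het-Ctrl (difference 0.66, SE 0.27), with the same ordering of the numbers. Between Het-NMyc and WT-NMyc Ndrg2 differed by 0.81. For both genes the groups overlapped while each Het-Ctrl array was above the WT-Ctrl array of its number.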
